A study of Saccharomyces cerevisiae with 93 samples.

Results

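The 38 genes described here encode the nuclear part of the respiratory chain and the ATP synthase of baker's yeast, Saccharomyces cerevisiae. They were taken by name from the annotation of the yeast genome, and the array carried 1 probe for each of them among 6377 probes in all. They comprise 3 NADH dehydrogenases, 4 subunits of complex II, 9 subunits of complex III, the major cytochrome c, 8 subunits of complex IV, and 12 subunits of complex V together with its inhibitor protein INH1 (13 genes). The rule uses gene names and no measured value, but the list was chosen with earlier results of these data known. Subunits that the mitochondrial genome encodes are not among them.

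Baker's yeast has no proton-pumping complex I. Instead, NADH is oxidised by dehydrogenases made of a single polypeptide: NDI1 faces the mitochondrial matrix, and NDE1 and NDE2 face the space outside the inner membrane. Electrons from these enzymes and from succinate dehydrogenase (complex II) pass through ubiquinone to the cytochrome bc1 complex (complex III), then through cytochrome c to cytochrome c oxidase (complex IV), and the proton gradient so formed drives ATP synthase (complex V). In this yeast the nuclear genes of the chain are repressed by glucose and activated by the HAP2/3/4/5 complex, in which HAP4 is the regulated activating subunit. Cells grown on galactose, as here after induction, can both ferment and respire.

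The study measured total RNA from W303 yeast carrying integrated copies of an alpha-synuclein to GFP fusion under the GAL promoter, which galactose switches on. Alpha-synuclein is a human protein that aggregates in Parkinson's disease, and its overexpression is toxic to yeast. Strains with 2 copies and with 1 copy of the fusion were compared with each other and with a strain carrying only the vector, at 0, 2, 4 and 6 h after induction. At 4 h the 2-copy and vector strains were also treated with each of 6 compounds. The label of 1 sample, for both of its cultures, describes the strains as pump mutants, with the regulators of drug efflux PDR1 and PDR3 deleted. Compounds 1 and 2 are dihydrobenzoquinolinones that differ in carrying an iodophenyl or a bromophenyl group. Compounds 3 and 4 are dimethyl dihydroquinolinones whose phenyl ring carries bromine and fluorine at different positions. Compound 5 is a dimethyl dihydroquinolinone with an ethyl-bearing substituent, and compound 6 is a bromo dihydrobenzoquinolinone with an ethylphenyl group. No dose is given in the labels. The array has no probe for alpha-synuclein, so the induction of the transgene was not measured here.

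Every one of the 93 arrays compared a pair of RNA samples in 2 colours, with the first-named sample in Cy5 and the second in Cy3 and no dye swap. The deposited values are read here as log2 ratios of the first over the second, which is the likely direction from the order of the labels and from the convention of the authors' software. A value of -1 then means that the first culture held 2 times less of the transcript relative to all other transcripts. Groups held 3 arrays each, except the 2-copy over vector comparison at 4 h, which held 6. Replicates are labelled as biological. Leaving out 10 arrays of compound groups, whose values were held to be suspect before this fit, reduced 6 groups. Over all probes, these 10 arrays had mean correlations of 0.0076 to 0.214 with the kept arrays of their own groups. The 9 arrays of 2-copy over vector cells under compounds 1, 2 and 5 had mean correlations of 0.311 to 0.65, and the 6 untreated arrays at 4 h had 0.786 to 0.873. Kept arrays can also be weakly related: the 2 arrays of compound 6 in 2-copy cells correlated at -0.406, and those of compound 5 at 0.0532 to 0.12 in 2-copy cells and -0.216 to 0.0615 in vector cells. In vector cells array 2 of compound 1, array 2 of compound 2 and array 3 of compound 6 had mean correlations of 0.0242, 0.0587 and 0.024. Each comparison was tested in limma across all probes, and a gene is called higher or lower where its Benjamini-Hochberg adjusted p was under 0.05.

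At 4 h after induction, transcripts of the respiratory chain were lower in 2-copy cells than in vector cells at almost every step. The mean log2 ratio was below 0 for all 38 genes, with a median of -0.74, against -1e-04 for all probes. In limma 33 of the 38 were called lower and none higher, where 29.8% of all probes were called lower and 32% higher. At an unadjusted p under 0.05 the count was 34. The major cytochrome c was lowest, and complexes II, III and IV were called lower in every subunit among the 38 genes (4 of 4, 9 of 9 and 8 of 8). Of the complex V genes 9 of 13 were called, and of the NADH dehydrogenases 2 of 3. Bulk RNA cannot tell fewer cells with a transcript from less of it per cell: these cannot be told apart here.

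**Figure D1:**
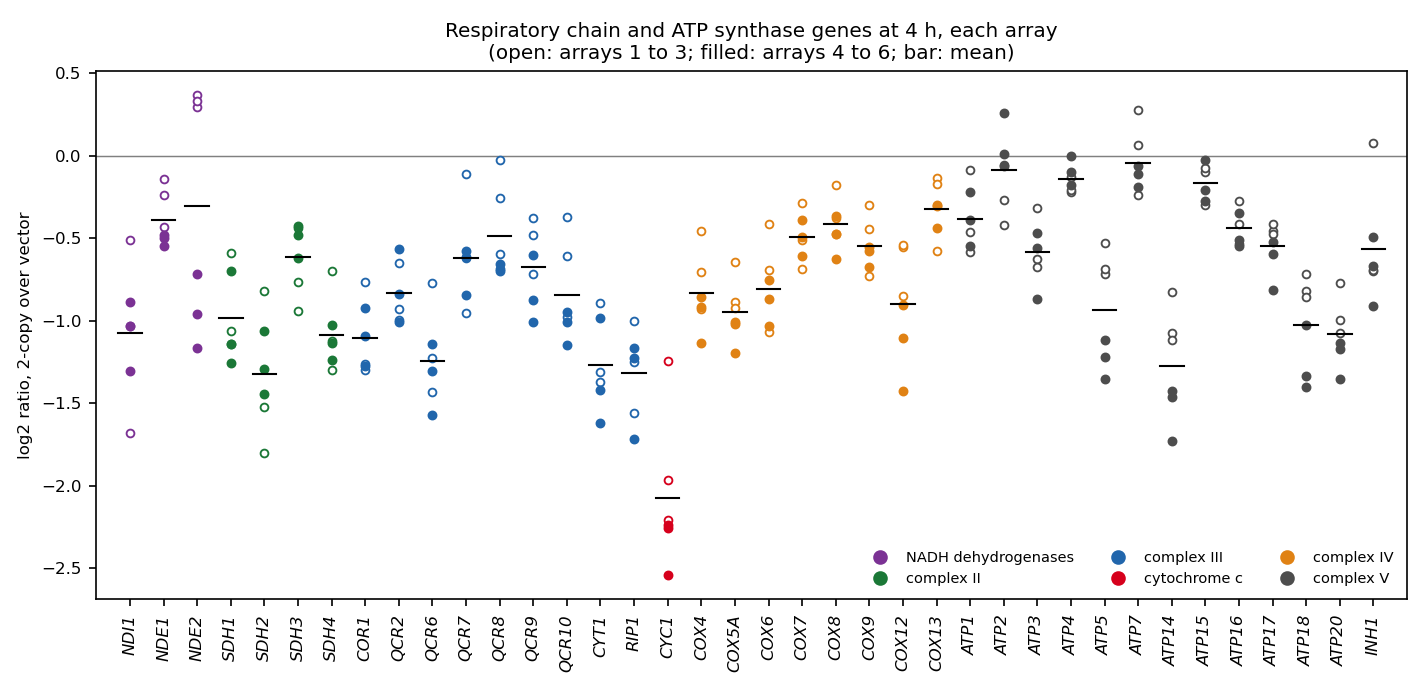
Log2 ratio of 2-copy over vector cells at 4 h (vertical axis) for each of the 38 genes (horizontal axis), grouped and coloured by complex. Each point is 1 of 6 arrays, open for arrays 1 to 3 and filled for arrays 4 to 6, and the bar is the mean; the mean of CYC1 lies lowest, at -2.08, and ATP7 nearest to 0, at -0.04.

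CYC1 (YJR048W) encodes iso-1-cytochrome c, the carrier between complexes III and IV. Its log2 ratios on the 6 arrays at 4 h had a lowest value of -2.55, a median of -2.22 and a highest value of -1.24. The mean was -2.08 ± 0.45 (SD, n = 6), or 4.22-fold lower in 2-copy cells, with an adjusted p of 1.746e-18 in limma. Its median over arrays was the lowest of the 38 genes, ahead of SDH2 at -1.37, and all 6 arrays were below 0.

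Among the NADH dehydrogenases, the matrix-facing and the outward-facing enzymes differed in their values. NDI1 (YML120C) had ratios from -1.68 to -0.51 with a median of -1.03, a mean of -1.07 ± 0.39 (SD, n = 6), 2.1-fold lower, at an adjusted p of 1.466e-09 in limma. All 6 arrays were below 0. NDE1 was only 1.31-fold lower, at -0.39 ± 0.16 (SD, n = 6) with a range of -0.54 to -0.14 and an adjusted p of 0.0002657 in limma, also with all 6 arrays below 0.

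NDE2 (YDL085W) was not called at 4 h, and its replicates fell into separate sets. Arrays 1 to 3 gave 0.37, 0.30 and 0.33, and arrays 4 to 6 gave -0.71, -1.16 and -0.96. The mean of -0.31 ± 0.71 (SD, n = 6; adjusted p = 0.07401 in limma) therefore describes neither set. Leaving out array 1, 2 or 3 brought NDE2 past the threshold as lower (adjusted p 0.01629 to 0.02167 in limma). For 11 of the 38 genes (28.9%) the values of arrays 1 to 3 and 4 to 6 did not overlap, and in each of the 11 arrays 4 to 6 were the lower set. Over all probes 2174 (34.1%) had non-overlapping sets in either direction, and the directions were not counted separately over all probes. The labels do not say what separates the sets, and its part in the result was not tested. With arrays 1 to 3 alone 30 genes were called, at a median of -0.64, and with arrays 4 to 6 alone 33 were called, at a median of -0.86.

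Complex II, which feeds electrons from succinate into ubiquinone, was lower in all 4 subunits. The iron-sulfur subunit SDH2 had ratios from -1.80 to -0.82 with a median of -1.37, and a mean of -1.32 ± 0.35 (SD, n = 6; 2.5-fold lower, adjusted p = 5.407e-10 in limma). The membrane anchor SDH4 averaged -1.09 and the flavoprotein SDH1 averaged -0.98. SDH3, the cytochrome b subunit, had the smallest difference of the complex, at -0.61 ± 0.21 (SD, n = 6), ranging from -0.94 to -0.42 with an adjusted p of 3.578e-07 in limma. All 6 arrays of SDH2 and of SDH3 were below 0.

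In complex III the catalytic subunits and the small subunits were lower, 9 of 9 in all. RIP1, the Rieske iron-sulfur protein, had ratios from -1.72 to -1.0 with a median of -1.24, and a mean of -1.32 ± 0.27 (SD, n = 6; 2.5-fold lower, adjusted p = 5.236e-19 in limma). CYT1, cytochrome c1, ranged from -1.62 to -0.89 with a mean of -1.27. The hinge protein QCR6 ranged from -1.57 to -0.77 with a mean of -1.24. The core proteins COR1 and QCR2 averaged -1.10 and -0.83, and the small subunits QCR10, QCR9 and QCR7 averaged -0.84, -0.68 and -0.62. QCR8, another small subunit, was closest to 0, at -0.49 ± 0.28 (SD, n = 6) with an adjusted p of 1.122e-06 in limma. Its highest array stood at -0.03, so its range approached 0 without reaching it.

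Complex IV moved over a narrower range. COX5A, the major form of the subunit that has an isoform for low oxygen, was lowest at -0.95 ± 0.18 (SD, n = 6), ranging from -1.19 to -0.64 with a median of -0.96 and an adjusted p of 4.612e-13 in limma. COX12, COX4 and COX6 averaged -0.90, -0.83 and -0.80, and COX9, COX7 and COX8 averaged -0.55, -0.49 and -0.42. COX13 had the smallest difference, at -0.32 ± 0.16 (SD, n = 6; 1.25-fold lower, range -0.57 to -0.13, adjusted p = 5.221e-05 in limma). Every array of COX5A and COX13 was below 0.

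Complex V was the most divided. ATP14, subunit h of the ATP synthase, was lowest at -1.27 ± 0.33 (SD, n = 6; 2.42-fold lower), with a range of -1.73 to -0.82 and an adjusted p of 2.306e-13 in limma. The membrane-sector subunits ATP20 (subunit g), ATP18 and ATP17 (subunit f) stood at -1.08, -1.03 and -0.55, and ATP5, the oligomycin-sensitivity protein of the stalk, at -0.94. The main subunits of the catalytic head lay closer to 0. ATP1, the alpha subunit, averaged -0.38 ± 0.19 (SD, n = 6; range -0.58 to -0.09, adjusted p = 0.01845 in limma). This call was lost without array 1 or array 6 (highest adjusted p 0.05808 in limma). At 4 h ATP1 stood at 0.03 in 1-copy over vector cells and at -0.09 in 1-copy over 2-copy cells, neither called. The direct comparison of 1-copy with 2-copy cells thus did not show ATP1 lower in 2-copy cells. For ATP1, 2-copy over vector minus 1-copy over vector plus 1-copy over 2-copy came to -0.50 at 4 h. Matching RNA would give 0, and that sum was the lowest of the genes described here. ATP2, the catalytic beta subunit, was not called at -0.09 ± 0.23 (SD, n = 6), with arrays from -0.42 to 0.26 and a 95% interval of -0.33 to 0.15. ATP7, subunit d of the stator stalk, was not called at -0.04 ± 0.19 (SD, n = 6; range -0.24 to 0.28, adjusted p = 0.5691 in limma). The stator subunit ATP4 at -0.14 (adjusted p = 0.07917 in limma) and the epsilon subunit ATP15 at -0.16 (adjusted p = 0.1338 in limma) were not called either. ATP3 (gamma) and ATP16 (delta) were called lower at -0.59 and -0.44, as was INH1, which inhibits ATP hydrolysis by the enzyme, at -0.56 ± 0.34 (SD, n = 6; range -0.91 to 0.08, adjusted p = 6.194e-05 in limma).

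By complex, the median mean ratio at 4 h was -0.39 for the NADH dehydrogenases, -1.03 for complex II, -0.84 for complex III, -0.68 for complex IV and -0.55 for complex V. On single arrays the median over the 38 genes lay between -1.02 and -0.43. Without any 1 array, 32 of the 33 calls remained in every case, ATP1 being the exception.

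Before induction and early after it, few of the genes differed between the 2-copy and vector strains. At 0 h CYC1 was called higher in 2-copy cells (1.11, 0.20 and 1.10 on the 3 arrays, mean 0.80, adjusted p = 0.005317 in limma) and NDE2 was called lower (-1.74, -0.62 and -0.26, mean -0.87, adjusted p = 0.003277 in limma). This 1 higher and 1 lower call compare with 8.39% of all probes called higher and 6.45% called lower. The 3 arrays of each gene lay on 1 side of 0, but they spread widely. The CYC1 call was lost without array 1 (adjusted p = 0.1232) or array 3 (0.1044), and the NDE2 call without array 1 (0.3275), all in limma. Without array 1 the count was 1.

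At 2 h, 2 genes were called lower, where 5.33% of all probes were: RIP1 (-0.38, -0.36 and -0.47, mean -0.40, adjusted p = 0.02714 in limma) and SDH4 (-0.31, -0.59 and -0.33, mean -0.41, adjusted p = 0.03797 in limma). All 3 arrays of both genes were below 0, yet no call was left when any 1 of the 3 arrays was dropped (count 0 without array 1, 2 or 3). CYC1 had the lowest mean, at -0.55 on arrays of -0.73, -0.53 and -0.38, and was not called (adjusted p = 0.07282 in limma). The median over the 38 genes was 0.09 at 0 h and -0.04 at 2 h.

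At 6 h, 22 of the 38 genes were called lower in 2-copy than in vector cells and none higher, where 20.2% of all probes were called lower. The median was -0.46, and 35 of the 38 means were below 0. Complex IV was still called lower in all 8 listed subunits and complex III in 7 of 9. In complex II 2 of 4 genes were called, in complex V 4 of 13 and of the NADH dehydrogenases 1 of 3, but not cytochrome c. Array 3 was above 0 for COX7 (-1.07, -0.98 and 0.19) and QCR2 (-1.23, -0.99 and 0.18). COX4 averaged -0.95, but in 1-copy over 2-copy cells it was called only without array 1 (0.73, adjusted p = 4.025e-05 in limma). For COX4, 2-copy over vector minus 1-copy over vector plus 1-copy over 2-copy came to -0.77 at 6 h, where matching RNA would give 0. That sum was the lowest of the 38 genes.

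COX8, a small subunit of cytochrome c oxidase, had the lowest mean at 6 h, with arrays of -1.16, -1.27 and -1.04 (mean -1.15, adjusted p = 3.974e-13 in limma). COX12 followed with arrays of -1.14, -1.0 and -1.27 (mean -1.14, adjusted p = 4.59e-09 in limma). ATP5 gave -1.22, -0.87 and -0.98 (mean -1.02, adjusted p = 7.568e-12 in limma). The arrays of these 3 genes all lay well below 0, the nearest at -0.87. NDE2 was called lower as well, with more scatter (-1.96, -0.47 and -0.86, mean -1.10, adjusted p = 3.019e-05 in limma). RIP1 stayed low, with arrays of -0.94, -0.85 and -0.77, and QCR7 gave -1.13, -0.97 and -0.71. ATP7, which had shown no call at 4 h, was lower on all 3 arrays (-0.93, -0.62 and -0.74, mean -0.76, adjusted p = 3.534e-10 in limma).

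CYC1 had no call at 6 h: its arrays gave -0.13, 0.56 and -0.03, on both sides of 0, and the mean was 0.13 (adjusted p = 0.6342 in limma). NDI1 gave -0.75, 0.30 and 0.21 (mean -0.08). SDH2 gave 0.48, -1.21 and 0.86 (mean 0.05), and without array 2 it was called higher, at 0.67 (adjusted p = 0.03122 in limma). In 1-copy over 2-copy cells at 6 h, SDH2 without array 2 was called higher in 1-copy cells (0.97, adjusted p = 0.003194 in limma). Its mean in 1-copy over vector cells at 6 h was -0.01. Those arrays put SDH2 lower in the 2-copy strain, so its direction at 6 h is not settled. ATP16 gave -0.97, 1.40 and -0.89, and without array 2 it was called lower (adjusted p = 1.146e-06 in limma). Array 2 of 2-copy over vector thus decided the calls of SDH2 and ATP16 at 6 h. ATP14 gave 0.48, -1.01 and -0.88 (mean -0.47, adjusted p = 0.024 in limma). That call was among the 5 of 22 lost when some array was dropped, with those of SDH4, QCR6, QCR9 and COX7, leaving 17. Fitted to its own arrays, the comparison at 6 h had a count of 12.

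**Figure D2:**
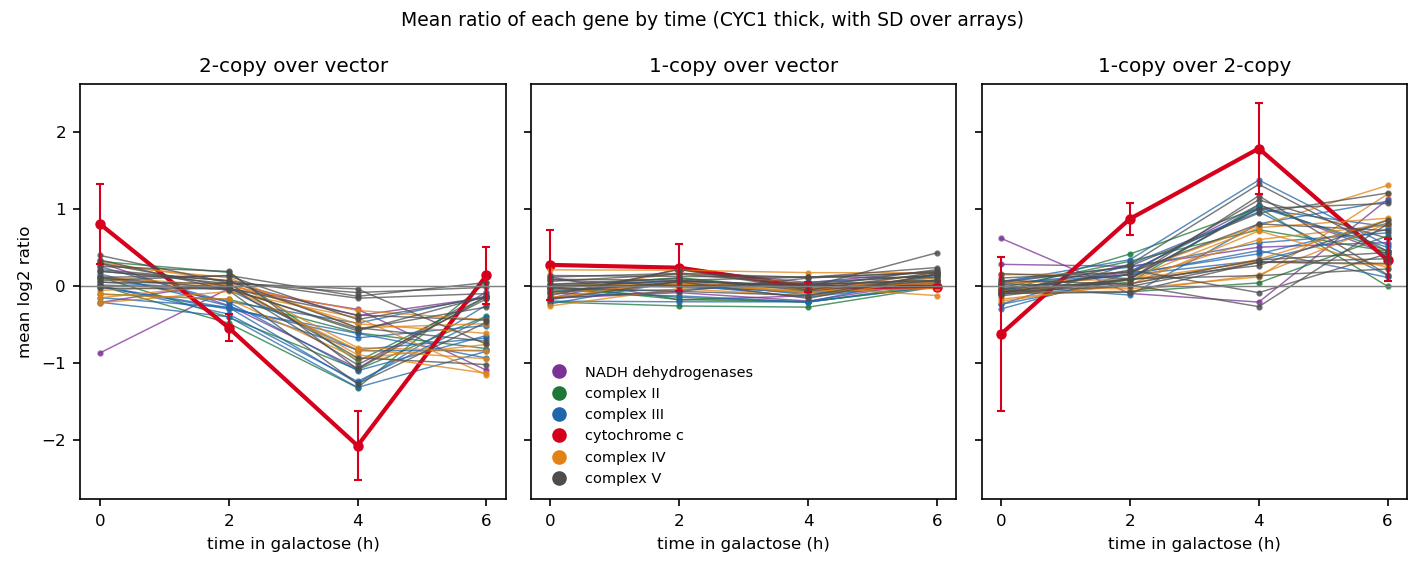
Mean log2 ratio (vertical axis) of each of the 38 genes at 0, 2, 4 and 6 h after induction (horizontal axis), in 3 panels for 2-copy over vector, 1-copy over vector and 1-copy over 2-copy, coloured by complex, with CYC1 drawn thick with its SD. CYC1 goes from 0.80 to -2.08 and back to 0.13 in the first panel, and stays between -0.02 and 0.27 in the second.

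Set against its own value at 0 h, the 2-copy over vector ratio of 28 genes was lower at 4 h and of none higher, where 18.5% of all probes were lower (median -0.83). At 6 h 20 were lower, against 12.6% of probes (median -0.53), and at 2 h 1 was, against 3.79%. Without 1 array or another, 25 of the 28 calls at 4 h and 12 of the 20 at 6 h remained in every case. The gene at 2 h was CYC1, with a change of -1.35 (SE 0.29, adjusted p = 0.001479 in limma), and no call was left without array 1. CYC1 also had the lowest change at 4 h, -2.88 (SE 0.25, adjusted p = 7.088e-14 in limma), and was not called at 6 h (-0.67, adjusted p = 0.08661). Without array 2 CYC1 was called lower at 6 h (-1.18, adjusted p = 0.009376 in limma). ATP14 changed by -1.61, SDH2 by -1.32 and RIP1 by -1.11 at 4 h. ATP5 was low at both late times, with a change of -1.13 at 4 h and -1.21 at 6 h (adjusted p = 7.692e-09 in limma). NDE2, already low at 0 h, had a change of 0.57 at 4 h that was not called (adjusted p = 0.07918 in limma). Without array 3, 5 or 6 that change was called higher (adjusted p 0.0192 to 0.04205 in limma).

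The change between 4 h and 6 h, a comparison added after the values had been seen that uses the same 4 h arrays, divided the genes. The 2-copy over vector ratio rose in 12 genes and fell in 3, where 15.9% of all probes rose and 17.2% fell. Cytochrome c (CYC1) rose by 2.21 (SE 0.25, adjusted p = 5.383e-10 in limma), SDH2 by 1.37 (SE 0.29, adjusted p = 0.0001259) and CYT1 by 1.02 (SE 0.18, adjusted p = 6.338e-06). The other genes that rose were NDI1 (0.99), ATP20 (0.94), ATP18 (0.85), SDH1 (0.84), QCR6 (0.84), ATP14 (0.80), SDH4 (0.69), RIP1 (0.47) and COR1 (0.46). They are 1 NADH dehydrogenase, 3 subunits of complex II, 4 of complex III, cytochrome c and 3 of complex V, and none of complex IV. Among them, the arrays at 4 h and 6 h overlapped for SDH2, NDI1, SDH4, COR1 and ATP14. At 6 h array 2 of SDH2 (-1.21) and array 1 of NDI1 (-0.75) lay within the 4 h range of their gene.

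COX8, ATP7 and NDE2 moved the other way. The ratio of COX8 fell by 0.74 on the log2 scale (SE 0.13, adjusted p = 1.177e-05 in limma) and that of ATP7 by 0.72 (SE 0.11, adjusted p = 5.563e-07 in limma). That of NDE2 changed by -0.79 (SE 0.26, adjusted p = 0.01552 in limma), a call lost without array 1 (adjusted p = 0.6131). Without 1 array or another, 11 of the 15 calls remained in every case, the exceptions being NDE2, COR1, RIP1 and ATP14. ATP16, not called with all arrays, was called higher without array 1 (0.67) or 3 (0.69) and lower without array 2 (-0.49).

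**Figure D3:**
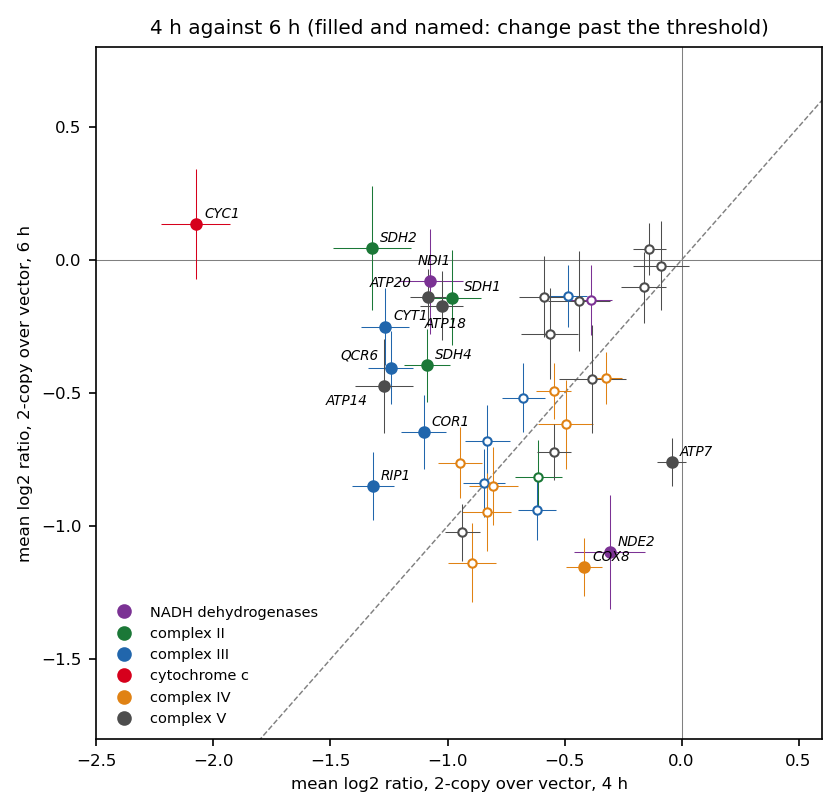
Mean log2 ratio of 2-copy over vector at 4 h (horizontal axis) against that at 6 h (vertical axis) for the 38 genes, with bars of 1 SE from the fit and a dashed line where both are equal. Filled and named genes changed past the threshold: 12 lie above the line, CYC1 furthest, and COX8, ATP7 and NDE2 lie below it.

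Between cells with 1 copy of alpha-synuclein and vector cells no difference in these transcripts was called at any time. In limma none of the 38 genes was called in 1-copy over vector cells at 0, 2, 4 or 6 h, where 2.98%, 5.76%, 0.643% and 0.8% of all probes were called. At an unadjusted p under 0.05 the counts were 0, 0, 0 and 2. With arrays scaled to equal spread 1, 1 and 4 genes were called at 0, 4 and 6 h. The share of all probes called after scaling was not computed. Medians were -0.03, 0.03, -0.05 and 0.07. At 4 h the means ran from -0.28 for SDH3 to 0.17 for COX9. CYC1 averaged 0.27, 0.23, -0.02 and -0.01 at the 4 times. ATP16 had the highest mean at 6 h, at 0.43, and was not called.

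The direct comparison of 1-copy with 2-copy cells used the 2-copy strain again, on arrays of their own that may share cultures with those above. At 4 h 28 genes were called higher in 1-copy cells and 1 lower, where 23.2% and 24.9% of all probes were, with a median of 0.66. CYC1 was 2.19, 2.04 and 1.11 higher on the 3 arrays (mean 1.78, adjusted p = 2.512e-10 in limma). CYT1 gave 1.45, 1.59 and 1.07 (mean 1.37), and ATP20 gave 1.48, 1.40 and 1.06 (mean 1.32, adjusted p = 3.777e-15 in limma). The 3 arrays of each of these genes were above 1. The gene called lower was ATP7 (-0.09, -0.36 and -0.36, mean -0.27, adjusted p = 0.00977 in limma). ATP7 was among 6 of the 29 calls lost when some array was dropped, with QCR2, QCR7, QCR8, COX5A and COX13. NDE2 and ATP1 were not called at -0.21 and -0.09.

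At 6 h 26 genes were higher in 1-copy than in 2-copy cells and none lower, where 19.8% of all probes were higher, with a median of 0.59. COX12 led with 1.38, 1.27 and 1.25 (mean 1.30, adjusted p = 1.487e-10 in limma), then ATP5 at 1.20 and COX8 with 1.19, 1.29 and 1.09 (mean 1.19). ATP7, lower at 4 h, was higher at 6 h on all 3 arrays (0.89, 0.74 and 0.77, mean 0.80). CYC1 was not called at 0.30, 0.62 and 0.08 (mean 0.33, adjusted p = 0.2049 in limma). SDH1 gave 0.86, -0.73 and -0.15, and its arrays lay on both sides of 0. Without 1 array or another 20 of the 26 calls remained in every case.

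Earlier, 1-copy and 2-copy cells differed in at most 1 of the genes. At 2 h CYC1 was higher on all 3 arrays (0.94, 0.63 and 1.03, mean 0.87, adjusted p = 0.002693 in limma), where 5.1% of all probes were called higher, and without array 3 it just missed the threshold (adjusted p = 0.05022), leaving a count of 0. At 0 h none of the 38 was called in limma, where 4.5% of all probes were, and 4 had an unadjusted p under 0.05. CYC1 had the lowest mean at 0 h, -0.63 ± 1.00 (SD, n = 3), on arrays of -0.14, 0.04 and -1.78. Only array 3 was far from 0, and CYC1 was called lower without array 1 (adjusted p = 0.0314) or without array 2 (adjusted p = 0.01275), for a count of 1 in each case.

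At 4 h, treatment of 2-copy cells with compounds 1, 2 and 4 raised part of the chain relative to untreated 2-copy cells, and cytochrome c was not among the genes called. Compound 1 raised 19 genes and lowered none, where 17.2% of all probes were called higher (median 0.37). Compound 2 raised 16, against 16.6% (median 0.29), and compound 4 raised 12 on 2 arrays, against 4.89% (median 0.32). The compound comparisons may share untreated cultures, which the labels do not settle, so the values of each compound are given side by side.

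NDI1, the matrix-facing NADH dehydrogenase, had arrays of 1.11, 0.72 and 0.77 with compound 1 (mean 0.86, adjusted p = 0.000382 in limma). With compound 2 its arrays gave 1.07, 0.94 and 0.75 (mean 0.92, adjusted p = 0.0001599 in limma). With compound 4 they gave 0.75 and 1.19 (mean 0.97, adjusted p = 0.003397 in limma). The arrays of all 3 compounds were clear of 0, the lowest at 0.72. NDE1 and NDE2 were not called with compound 1 (0.23 and 0.19).

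In complex II, compound 1 raised 3 of 4 genes and compounds 2 and 4 raised 1 each. In complex III each of the 3 compounds raised 4 of 9. RIP1 had 1.32, 0.45 and 0.55 with compound 1 (mean 0.77, adjusted p = 2.456e-06 in limma) and 0.70 and 0.67 with compound 4 (mean 0.69, adjusted p = 0.001351 in limma). CYT1 gave 1.28, 0.14 and 0.98 with compound 1 (mean 0.80), so that array 2 lay near 0 for a gene that was called. Cytochrome c itself, CYC1, gave 0.71, 0.27 and 0.42 with compound 1 (mean 0.47, adjusted p = 0.06963 in limma), 0.34, -0.16 and 0.31 with compound 2 (mean 0.16, adjusted p = 0.5703), and -0.81 and 0.07 with compound 4 (mean -0.37, adjusted p = 0.3794).

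In complex IV, compounds 1, 2 and 4 raised 5, 6 and 2 of 8 genes. COX4 had 0.92, 0.68 and 0.88 with compound 2 (mean 0.83, adjusted p = 7.333e-06 in limma) and 0.70 and 0.98 with compound 4 (mean 0.84, adjusted p = 0.0006638 in limma). COX6 had 0.86, 0.84 and 0.76 with compound 1 (mean 0.82, adjusted p = 1.124e-05 in limma). These replicates lay close together and clear of 0. In complex V, the compounds raised 6, 4 and 4 of 13. ATP17, subunit f, gave 1.05, 0.69 and 0.85 with compound 1 (mean 0.86, adjusted p = 2.045e-09 in limma), 0.24, 0.93 and 0.82 with compound 2 (mean 0.66), and 0.54 and 0.89 with compound 4 (mean 0.72, adjusted p = 5.879e-05 in limma). INH1, the inhibitor protein, gave 0.68, 0.57 and 0.83 with compound 1 (mean 0.69, adjusted p = 0.001006 in limma) and 0.68, 1.10 and 0.71 with compound 2 (mean 0.83, adjusted p = 9.48e-05 in limma). ATP1, the alpha subunit, was called with compound 1 on arrays of 1.52, 0.10 and 0.20 (mean 0.61, adjusted p = 0.01438 in limma), and the call rested on array 1, without which its adjusted p was 0.6968.

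Dropping 1 array at a time left 10 of the 19 calls of compound 1 in every case and 9 of the 16 of compound 2, whose count was 10 without array 3. Of the 12 calls of compound 4 none remained in every case, with a count of 2 without array 2. Fitted to their own arrays, compounds 1, 2 and 4 had counts of 6, 9 and 0.

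The other 3 compounds gave no calls among the 38 genes in 2-copy cells in limma. Compound 3, read from 1 array and tested only through the spread pooled over the other groups, had 9 genes at an unadjusted p under 0.05, a median of 0.17, and 6.77% of all probes called. COR1 was at 0.73 (adjusted p = 0.05001 in limma), ATP1 at 0.76, NDI1 at 0.60 and CYC1 at -1.03 (adjusted p = 0.06816 in limma). Compound 5 had 7 genes at an unadjusted p under 0.05, a median of 0.07, and 2.12% of all probes called. Its highest gene, SDH4, stood at 0.47 (adjusted p = 0.05066 in limma) and was called without array 2, for a count of 1. Compound 6, with 2 arrays, had 1 gene at an unadjusted p under 0.05, a median of -0.04, and 0.0157% of all probes called. NDI1 gave 0.72, -0.15 and 0.21 with compound 5 and 0.19 and 0.12 with compound 6.

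**Figure D4:**
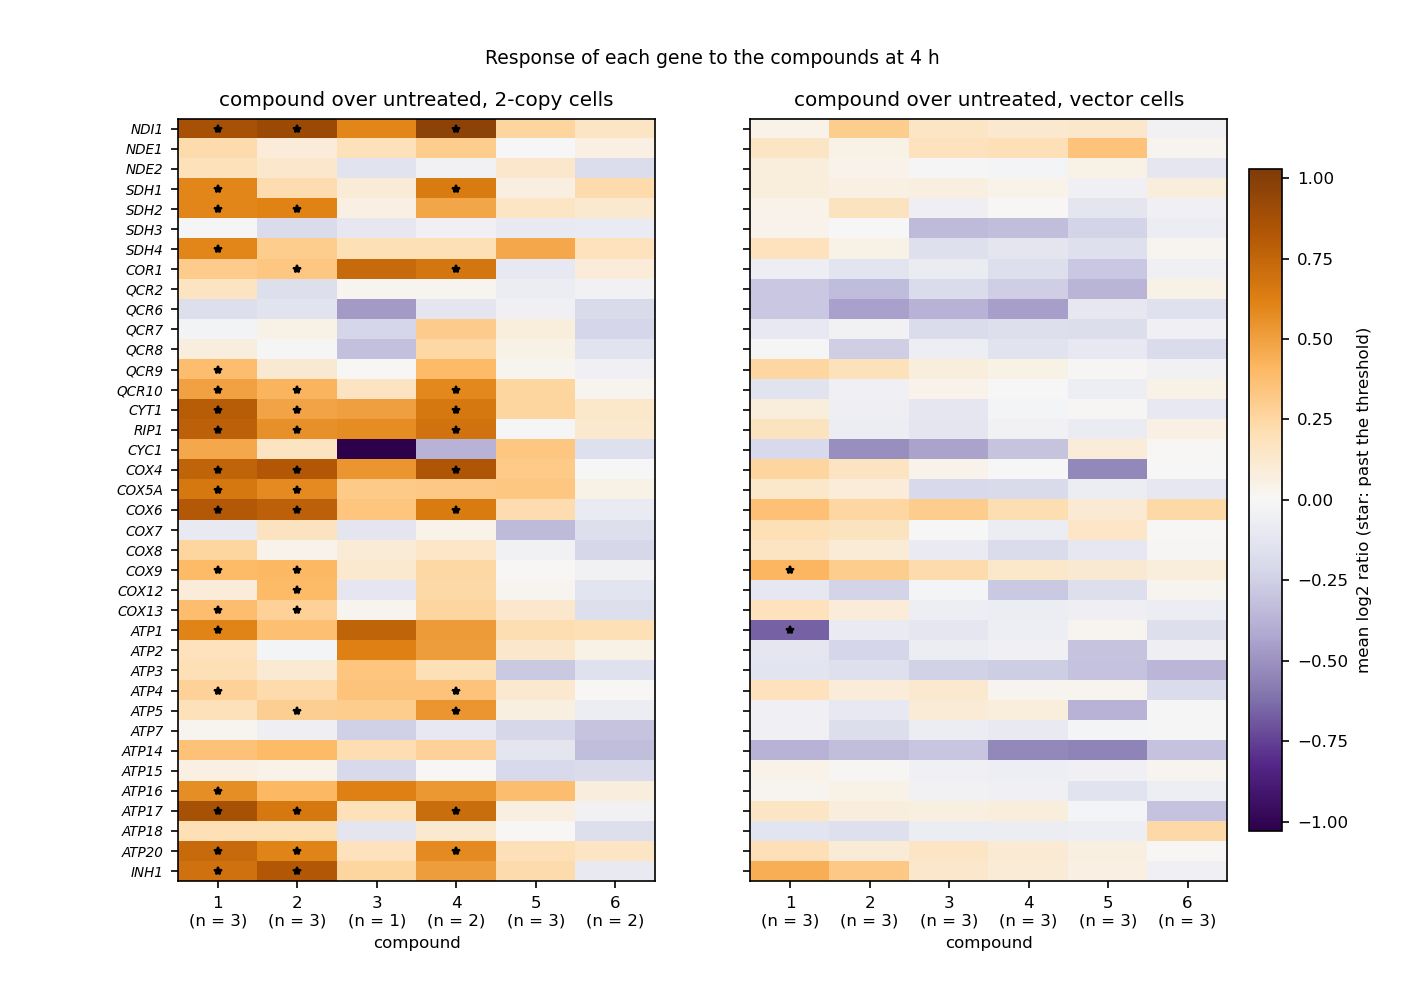
Mean log2 ratio at 4 h of compound over untreated cells for the 38 genes (rows, by complex) and the 6 compounds (columns), in 2-copy cells and in vector cells, on a colour scale centred on 0. A star marks a gene past the threshold: 19, 16 and 12 with compounds 1, 2 and 4 in 2-copy cells, and 2 with compound 1 in vector cells.

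In vector cells, without alpha-synuclein, compounds 2 to 6 gave no call among the 38 genes in limma, where 2.15%, 0.345%, 0.392%, 0.768% and 0.0157% of all probes were called. At an unadjusted p under 0.05 the counts were 5, 5, 3, 7 and 2, and without array 1 compound 5 had a count of 1. With arrays scaled to equal spread compounds 2 to 6 had counts of 3, 7, 6, 4 and 3, and fitted to their own arrays compounds 3 and 4 had 4 and 1. The share of all probes called in these refits was not computed, so these counts have no background beside them. Compound 1 had 1 gene higher and 1 lower, where 1.18% of all probes were higher and 4.09% lower. COX9 was higher (0.37, 0.57 and 0.31, mean 0.41, adjusted p = 0.009963 in limma), and ATP1 was lower (-0.14, -1.77 and -0.10, mean -0.67, adjusted p = 0.03873 in limma). Both rested on array 2: without it the adjusted p of COX9 was 0.3798 and that of ATP1 was 0.9722, for a count of 0. Over all probes this array had a mean correlation of 0.0242 with the other 2 of its group. NDI1, raised in 2-copy cells, gave 0.03, -0.51 and 0.62 with compound 1, on both sides of 0. CYC1 averaged -0.21, -0.51, -0.44, -0.30, 0.10 and 0.00 with compounds 1 to 6 and was not called. ATP14 gave -0.52, -0.51 and -0.57 with compound 4 (mean -0.53), 3 values close together that were not called (adjusted p = 0.2324 in limma).

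Whether a compound acted differently in 2-copy and vector cells was tested as the difference of these responses. With compound 1 this difference was called higher for 9 of the 38 genes and lower for none, where 7.73% of all probes were called higher (median 0.34). With compound 2 it was called for 6, against 5.6% (median 0.33), and with compound 4 for 4, against 0.627% (median 0.45). As shares of the 38 genes these counts are above the background share in each comparison.

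With compound 1 the response of ATP17 was 0.71 larger in 2-copy cells (95% interval 0.41 to 1.00, adjusted p = 0.0004233 in limma) and that of NDI1 0.82 larger (0.26 to 1.37, adjusted p = 0.03246). That of ATP1 was 1.27 larger (0.70 to 1.85, adjusted p = 0.001075), with the high array 1 in 2-copy cells and the low array 2 in vector cells given above. The others were ATP14 (0.73), CYT1 (0.72), QCR10 (0.64), RIP1 (0.60), COX5A (0.53) and ATP20 (0.52). With compound 2 the genes were ATP14 (0.72), COX4 (0.66), RIP1 (0.62), COX12 (0.62), ATP17 (0.59, interval 0.29 to 0.88, adjusted p = 0.003448 in limma) and ATP20 (0.51). CYC1 differed by 0.68 with compound 2 (interval 0.09 to 1.26) and was not called (adjusted p = 0.1104 in limma). With compound 4 the genes were COX4 (0.84, interval 0.37 to 1.30, adjusted p = 0.03788 in limma), COR1 (0.83), RIP1 (0.72) and ATP17 (0.63), and NDI1 was not called at 0.85 (interval 0.23 to 1.47, adjusted p = 0.1458 in limma).

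These calls depended on single arrays. For compound 1 the count was 3 without array 1 and 4 without array 3, and ATP1 was the 1 gene called in every case. Its outlying arrays carry different numbers, 1 in 2-copy and 2 in vector cells, so each of these fits kept at least 1 of them and its call is no sign of stability. Fitted to its own arrays, the comparison had a count of 0. For compound 2 the count was 0 without array 3. For compound 4 it was 0, 0 and 1 as arrays were left out, and 0 with all 93 arrays. For compounds 3, 5 and 6 no difference was called in limma, where 1.51%, 0.0784% and 0% of all probes were called, with 5, 5 and 1 genes at an unadjusted p under 0.05. Without array 2 compound 5 had a count of 1.

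Treated 2-copy cells were also hybridised directly against vector cells under the same compound. Of the 38 genes, 12 to 34 were called lower in 2-copy cells and none higher, depending on the compound. With compounds 1, 2 and 5, on 3 arrays each, 23, 19 and 34 genes were called lower and none higher, where 4.88%, 4.69% and 14.7% of all probes were called lower, at medians of -0.49, -0.38 and -0.57. With compounds 3, 4 and 6, on 1 array each and tested only through the pooled spread, 16, 12 and 16 were called lower, against 4.16%, 3.65% and 7.68%, at medians of -0.52, -0.38 and -0.57. Dropping 1 array at a time left 13, 12 and 22 of the calls with compounds 1, 2 and 5 in every case, and for compound 1 the count was 13 without array 2. Fitted to their own arrays, the comparisons with compounds 1, 2 and 5 had counts of 9, 0 and 17.

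CYC1 was far below 0 under every compound. Its arrays gave -1.48, -1.88 and -1.35 with compound 1 (mean -1.57, adjusted p = 1.341e-07 in limma). They gave -1.30, -2.08 and -1.27 with compound 2 (mean -1.55) and -1.56, -2.11 and -1.63 with compound 5 (mean -1.77, adjusted p = 1.098e-09 in limma). The single arrays of compounds 3, 4 and 6 gave -2.41, -2.32 and -1.84. All 12 arrays were at or below -1.27, against an untreated range of -2.55 to -1.24. RIP1 averaged -0.90, -0.93, -0.92, -0.94, -0.95 and -0.96 with compounds 1 to 6. NDI1 was called with compound 5 (-0.66, adjusted p = 0.006376 in limma), a call lost without array 3 (adjusted p = 0.07413). With compounds 1 and 2 it was not called, at -0.36 and -0.23. On the single arrays of compounds 3, 4 and 6 it stood at -0.66, -0.36 and -0.72 and was not called.

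By complex, compound 5 left the most genes lower: 4 of 4, 9 of 9, 8 of 8 and 10 of 13 in complexes II, III, IV and V. With compound 1 these counts were 4, 9, 6 and 3, and with compound 2 they were 4, 9, 2 and 3. These are counts of calls, and the difference between compounds was not tested here.

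**Figure D5:**
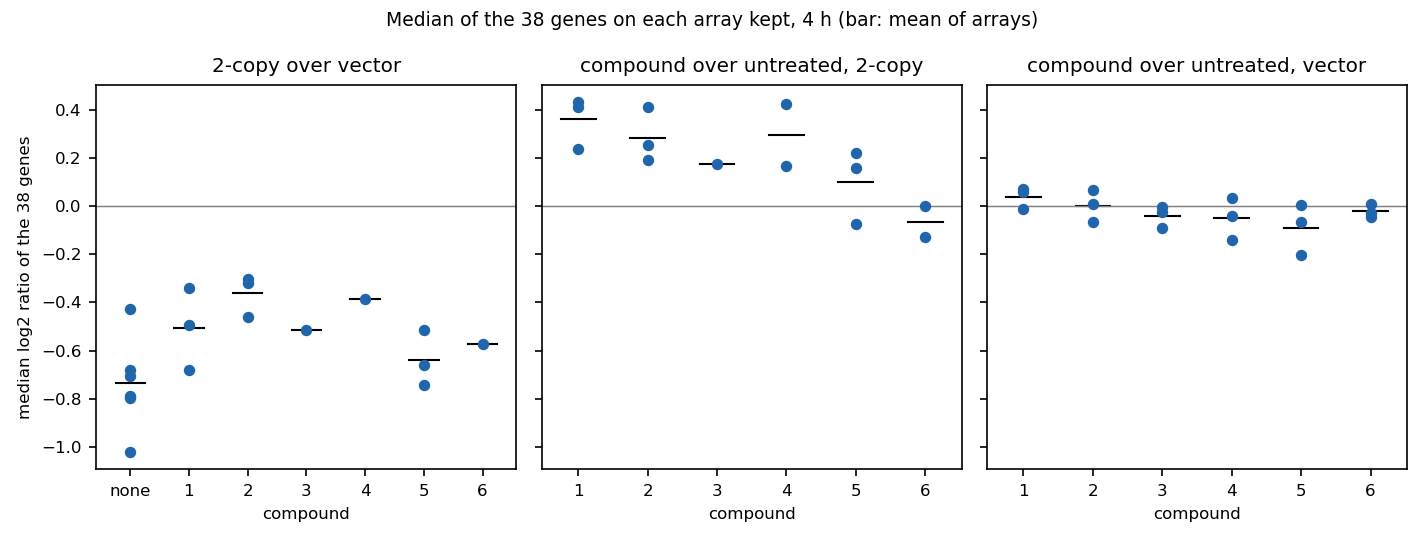
Median log2 ratio of the 38 genes on each kept array at 4 h (vertical axis), for 2-copy over vector cells with no compound and with compounds 1 to 6, and for compound over untreated cells in the 2-copy and vector strains, with a bar at the mean of the arrays. Every array of 2-copy over vector cells lies below 0, and the 6 untreated arrays lie between -1.02 and -0.43.

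Compounds 1 and 2, which differ in an iodo or bromo substituent, and compounds 3 and 4, which differ in the positions of bromine and fluorine, were compared in 4 tests adjusted together. In limma no member differed in any of them. For compound 1 minus compound 2 in 2-copy cells 0 genes had an unadjusted p under 0.05 and 0% of all probes were called. The differences ran from -0.30 for COX12 (95% interval -0.72 to 0.12) to 0.37 for SDH1 (-0.13 to 0.88), with NDI1 at -0.05 (-0.61 to 0.50), ATP17 at 0.20 (-0.10 to 0.49) and CYC1 at 0.30 (-0.28 to 0.89). In vector cells 1 gene had an unadjusted p under 0.05, ATP1 at -0.58 (-1.15 to -0.01), with 0.0314% of probes called.

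For compound 3 minus compound 4 in 2-copy cells, on 1 and 2 arrays, 3 genes had an unadjusted p under 0.05 and 0.0314% of probes were called. CYC1 differed by -0.66 (-1.54 to 0.22), QCR8 by -0.56 (-1.06 to -0.06) and ATP17 by -0.53 (-0.97 to -0.08). In vector cells 0 genes had an unadjusted p under 0.05, 0% of probes were called, and the differences ran from -0.13 for CYC1 to 0.26 for COX12. The intervals are wide, and the missing calls do not show that the compounds act alike.

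The regulators and partners of the chain were read from lists outside the 38 genes. Calls of genes in these lists were not checked by leaving out single arrays, including those near the threshold. HAP4, the activating subunit of the HAP2/3/4/5 complex, was lower in 2-copy than in vector cells at 2 h (-0.49, adjusted p = 0.02085 in limma), at 4 h (-1.04 ± 0.21, SD, n = 6, adjusted p = 1.021e-12 in limma) and at 6 h (-0.38, adjusted p = 0.03808 in limma). All 6 arrays at 4 h were below 0. Its ratio rose by 0.67 between 4 h and 6 h (adjusted p = 0.003149 in limma). In 2-copy cells HAP4 was raised by compound 1 (0.76, adjusted p = 5.573e-05), compound 2 (0.92, adjusted p = 1.524e-06) and compound 4 (0.74, adjusted p = 0.00364), all in limma. It was not called with compounds 3, 5 and 6 (0.79, 0.43 and 0.45), nor in vector cells with compounds 1 and 2 (0.34 and 0.32). The DNA-binding subunits HAP3 and HAP5 were lower at 4 h (-0.35 and -0.28), and HAP2 (-0.15), the haem-responsive activator HAP1 (0.22) and the repressor of hypoxic genes ROX1 (-0.02) were not called at 4 h. At 0 h ROX1 was lower (-1.28), and HAP5 (0.51) and HAP2 (0.40) were higher. From 0 h to 2 h the ratio of HAP5 changed by -0.65 (adjusted p = 0.003661 in limma). From 0 h to 4 h the changes called were -0.88 for HAP4, -0.79 for HAP5, -0.55 for HAP2, 0.50 for HAP1 (adjusted p = 0.04984) and 1.26 for ROX1. From 0 h to 6 h they were -0.55 for HAP5, -0.52 for HAP2 and 1.43 for ROX1. Between 4 h and 6 h HAP1 changed by -0.52 (adjusted p = 0.04608 in limma), with overlapping arrays at these times, and HAP2, HAP3, HAP5 and ROX1 were not called.

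Of 35 assembly factors, which build the complexes without being part of them, 30 were lower and 2 higher at 4 h, with a median of -0.78, where 29.8% of all probes were lower and 32% higher. The lowest was COX17, a copper chaperone for cytochrome c oxidase, at -1.82, and the next FMC1, needed for ATP synthase assembly in heat, at -1.39. The highest were SDH6 (0.57) and CYC2 (0.25). Between 4 h and 6 h, 21 of the 35 rose and 1 fell, against 15.9% and 17.2% of all probes. At 0 h 18 of them were higher in 2-copy cells and none lower, against 8.39% and 6.45%, with COX17 at 1.44.

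The same shares at 4 h, 29.8% lower and 32% higher, stand behind the smaller lists. Of 8 carriers and other electron donors 6 were lower and none higher, led by the lactate dehydrogenase CYB2 (-1.66) and the main ADP/ATP carrier PET9 (-1.53). Of 10 genes of ubiquinone synthesis 7 were lower and 1 higher, from COQ2 (-0.78) to COQ6 (0.54). Of 9 isoforms and minor subunits 4 were lower and 4 higher. CYC7, the minor cytochrome c, was lower at -0.98. SHH3, a homologue of SDH3, was higher at 1.84 (adjusted p = 1.329e-18 in limma), and STF2, related to ATP synthase regulation, was higher at 2.34 (adjusted p = 4.402e-10 in limma). In 2-copy cells SHH3 was lowered by compounds 1 to 4 (-0.95, -1.43, -1.48 and -1.13). Probe sequences were not analysed here, so signal shared between near copies such as SDH3 and SHH3, CYC1 and CYC7 or NDE1 and NDE2 was not tested.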

How the data were processed

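RNA from 30 groups of samples was compared on 93 arrays in 2 colours. The deposited values are 1 signed number per probe and array, read here as log2 ratios, and limma is the tool named in the submitters' processing notes. The limma version, the background correction, the normalization within and between arrays, the log base and the direction are given in none of the sources used. Here each ratio was taken to be on the log2 scale, with Cy5 as the numerator and Cy3 as the denominator. A ratio keeps no absolute level, so levels of different genes were not compared, and the number of arrays limits the precision. Array medians lay between -0.0306 and 0.0214. Of the 6377 probes, 5644 were named through locus tags, 196 after hyphens in the tag were set aside, and 537 were left unnamed. All 38 members and 68 of 69 context genes matched.

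One mean per group was fitted with limma 3.58.1 in R 4.3.3 to the 83 kept arrays, which share 1 estimate of spread (total degrees of freedom 57.61). Differences between groups were contrasts of that fit. P-values were adjusted by Benjamini-Hochberg over all probes in each comparison, and over the 4 compound pairs jointly. Groups reduced to 1 array were tested only through the spread of the other groups. Members, context lists, the left-out arrays and the rule for named genes (the lowest and highest gene of each complex at 4 h, the extreme genes of each comparison, and all regulators) were chosen with earlier results of these data known. The fit was run on simulated data in which each gene had the same spread in every group, so unequal spread between groups was not examined. In this fit p-values rest on each gene's spread between labelled biological replicates, pooled over all groups. They do not measure the spread within the group tested. Alternatives were all 93 arrays, a dye term, scaling of arrays to equal spread, each comparison fitted to its own arrays, a replicate block, the other arrays of the loop, and leaving out each array. Replicate numbers were checked for pairing in 12 differences: in 3 of them (compound 1 minus 2 in both strains, compound 3 minus 4 in vector cells) every pair's deviations correlated above 0.1, and the block changed no call there.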

Additional observations from a re-analysis of the deposited data

Results flagged for a closer look

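Differences between groups under the same contrast were called for 7 results. The 2-copy over vector ratio differed from its value at 0 h for 1 gene at 2 h, 28 genes at 4 h and 20 genes at 6 h. It differed between 4 h and 6 h for 15 genes. The response to a compound differed between 2-copy and vector cells for 9 genes with compound 1, 6 genes with compound 2 and 4 genes with compound 4. In the group of 6 arrays no value of the named genes stood apart from the others by Dixon's test.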

How the results depend on the processing

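The call of 33 genes at 4 h kept its direction under every alternative run, with counts of 30 to 35. Medians there were -0.44 after scaling of arrays and -0.79 with a dye term. Shares of all probes called under the alternatives were not computed, so counts from them have no background beside them. The other counts that moved by over 1.5 times follow, each as a number of the 38 genes, and the cause was not tested. With all 93 arrays they were 1 and 0 for 2-copy over vector at 0 h and 2 h, 5 and 7 for compounds 3 and 4 in 2-copy cells, 8 for 2-copy over vector with compound 3 and 0 for the response difference of compound 4. With a dye term they were 1 for 2-copy over vector at 2 h, 2 for 1-copy over 2-copy at 2 h, 3 for the change to 2 h, 1 for compound 3 in 2-copy cells, 0 for compound 1 in vector cells, 26 for 2-copy over vector with compound 6, and 16, 17, 1, 9 and 3 for the response differences of compounds 1 to 5. With arrays scaled they were 5 for 2-copy over vector at 2 h, 1, 1 and 4 for 1-copy over vector at 0, 4 and 6 h, 2 and 3 for 1-copy over 2-copy at 0 and 2 h, 2 and 11 for the changes to 2 and 6 h, and 8 for the change from 4 h to 6 h. Scaling also gave 11, 9, 1 and 1 for compounds 1, 2, 5 and 6 in 2-copy cells, 3, 7, 6, 4 and 3 for compounds 2 to 6 in vector cells, 2 for 2-copy over vector with compound 6, and 2 each for the response differences of compounds 1, 2 and 5. With own arrays only they were 0, 4 and 12 for 2-copy over vector at 0, 2 and 6 h, 6 for 1-copy over 2-copy at 2 h, 0 and 9 for the changes to 2 and 6 h, 6, 9 and 0 for compounds 1, 2 and 4 in 2-copy cells, 0, 4 and 1 for compounds 1, 3 and 4 in vector cells, 9, 0 and 17 for 2-copy over vector with compounds 1, 2 and 5, and 0 and 2 for the response differences of compounds 1 and 2. Own-array fits have fewer degrees of freedom. With the replicate block, the response difference of compound 5 had 1 call, and no other count moved by over 1.5 times (18 against 15 for the change from 4 h to 6 h). The other arrays of the loop gave 11, 1 and 2 for the response differences of compounds 2, 3 and 4.

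Leaving out 1 array at a time gave 1 to 2 genes for 2-copy over vector at 0 h and 0 at 2 h. It gave 0 to 1 for 1-copy over 2-copy at 0 h and at 2 h, and 0 to 1 for the change to 2 h. It gave 10 to 14, 2 to 10 and 0 to 1 for compounds 2, 4 and 5 in 2-copy cells, 0 to 2 and 0 to 1 for compounds 1 and 5 in vector cells, 13 to 22 for 2-copy over vector with compound 1, and 3 to 6, 0 to 5, 0 to 1 and 0 to 1 for the response differences of compounds 1, 2, 4 and 5. In 2-copy over vector cells, all 93 arrays turned COX8 to 0.0713 with compound 3 and to 0.3898 with compound 6, and COX13 to 0.1799 with compound 6. The signal over background was not analysed here.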
